A study of Mus musculus with 4 samples.

Results

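The p53 response genes described here are Trp53, which encodes the transcription factor p53, and 9 genes grouped with it as its targets. These are Mdm2, Cdkn1a, Ccng1, Btg2, Gadd45a, Gadd45b, Gadd45g, Sesn1 and Bax. They were chosen by name, and 10 of the 10 were found among the 19230 genes of the hippocampus expression table. RNA of the hippocampus, the brain region of memory formation, was sequenced from C57BL/6 mice aged 12 months in 2 groups. The LA group, which had received Licochalcone A (LA), a chalcone of licorice root, for 30 days, is represented by LA replicates 1 and 2. The Ctrl group, of the same strain, age and tissue, is represented by Ctrl replicates 2 and 3. The dose and route of LA and the sex of the mice are not stated in what was read here, nor is what Ctrl mice received, which the labels describe with a term for cell culture. Since no label names separate animals, the p-values cover the spread of these 4 libraries alone, and that spread may be technical.

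p53 is kept low in unstressed cells by MDM2, a ubiquitin ligase that marks it for degradation and that is itself induced by p53. After DNA damage or other stress p53 accumulates and induces p21, the product of Cdkn1a, which stops the cell cycle by inhibiting cyclin-dependent kinases (CDKs), along with further genes of growth arrest, metabolism and cell death. p21 and p53 are also used as markers of senescence, the lasting growth arrest that accumulates with age.

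Values are FPKM, which counts fragments relative to transcript length and to the mapped fragments of a library, so levels can be compared between genes. The relative depth of the libraries, read from the steps of low values, was 93.6% to 100% of that of Ctrl 3. Genes listed at 0 numbered 1361 in LA 1 and 1440 in LA 2, against 975 in Ctrl 2 and 919 in Ctrl 3. Each of the 20 listed markers of dentate granule cells and of CA1, CA2 and CA3 pyramidal neurons was detected in each library. The 12 choroid plexus markers were also detected in every library, but their summed level set Ctrl 3 apart. It was 136 FPKM in LA 1 and 168 FPKM in LA 2, against 76.2 FPKM in Ctrl 2 and 8972 FPKM in Ctrl 3.

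p53 recognizes pairs of a half-site of 10 bases, made of purines, a core that opens with C and closes with G, and pyrimidines. To show where this sequence lies at the p53 response genes, the p53 half-site consensus was searched in RefSeq promoter windows of GRCm38.p6, from 250 bases before to 50 bases after each annotated start. The consensus reads the same on both strands. The 10 genes had 12 windows, of which 7 held a match, in 7 different genes, against 8.36% of all 32851 windows. The matches are printed below with 10 bases on either side, 5′ to 3′ on the gene's strand, with the half-site in capitals, and each lies before the start named.
Trp53 (chr11:69580274-69580303, plus strand): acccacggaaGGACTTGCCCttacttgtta
Cdkn1a (chr17:29090896-29090947, plus strand): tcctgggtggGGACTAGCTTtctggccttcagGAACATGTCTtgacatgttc
Mdm2 (chr10:117710925-117710954, minus strand): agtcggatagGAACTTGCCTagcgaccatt
Ccng1 (chr11:40755452-40755481, minus strand): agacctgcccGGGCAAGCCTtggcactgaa
Gadd45a (chr6:67037428-67037457, minus strand): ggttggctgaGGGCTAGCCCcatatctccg
Sesn1 (chr10:41887256-41887285, plus strand): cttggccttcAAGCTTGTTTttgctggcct
Bax (chr7:45467080-45467109, minus strand): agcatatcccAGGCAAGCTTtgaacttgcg

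Cdkn1a alone of these genes had 2 exact half-sites in a window, 73 and 51 bases before its upstream start and 12 bases apart. At least 2 were found in 0.359% of all windows. Only exact matches were marked, so a half-site with a mismatch stands in lower case. The 10 bases right after the downstream half-site of Cdkn1a fit the consensus except for their first base. Which half-sites form a pair was not tested. That start lies 2790 bases before the other annotated start of Cdkn1a, whose own window held no match. The windows of Gadd45b, Gadd45g and Btg2 held none, nor did the upstream window of Sesn1. A match is a description of the letters, and p53 binding was not measured.

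None of the 10 p53 response genes was called at an adjusted p of 0.05 by limma, and 0 had an unadjusted p under 0.05. Over the 13518 genes tested, 0.141% were called and 7.8% had an unadjusted p under 0.05. The smallest adjusted p of the 10 genes was 0.731, for Btg2. Of the 10 log2 fold changes 2 were positive and 8 negative, though Trp53 and Mdm2 turned positive with median-ratio scaling or quantile normalization. Their median was -0.11, beside a median of -0.012 over all tested genes. Without Ctrl 3 it was -0.016, beside -0.023 over all genes, and without LA 1 it was -0.064, beside -0.057 over all genes. Without Ctrl 2 it was -0.19. Its distance from the background was thus small when either Ctrl 3 or LA 1 was left out. The groups did not overlap for 3 of the 10 genes, higher with LA for Bax and Ccng1 and lower with LA for Btg2, whereas 38.6% of all tested genes had groups that do not overlap, 17.6% with LA higher and 21% with LA lower. The share of the p53 response genes was thus near the background. The exact permutation test, two-sided, can reach no p below 0.333 with 2 libraries in each group.

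**Figure D1:**
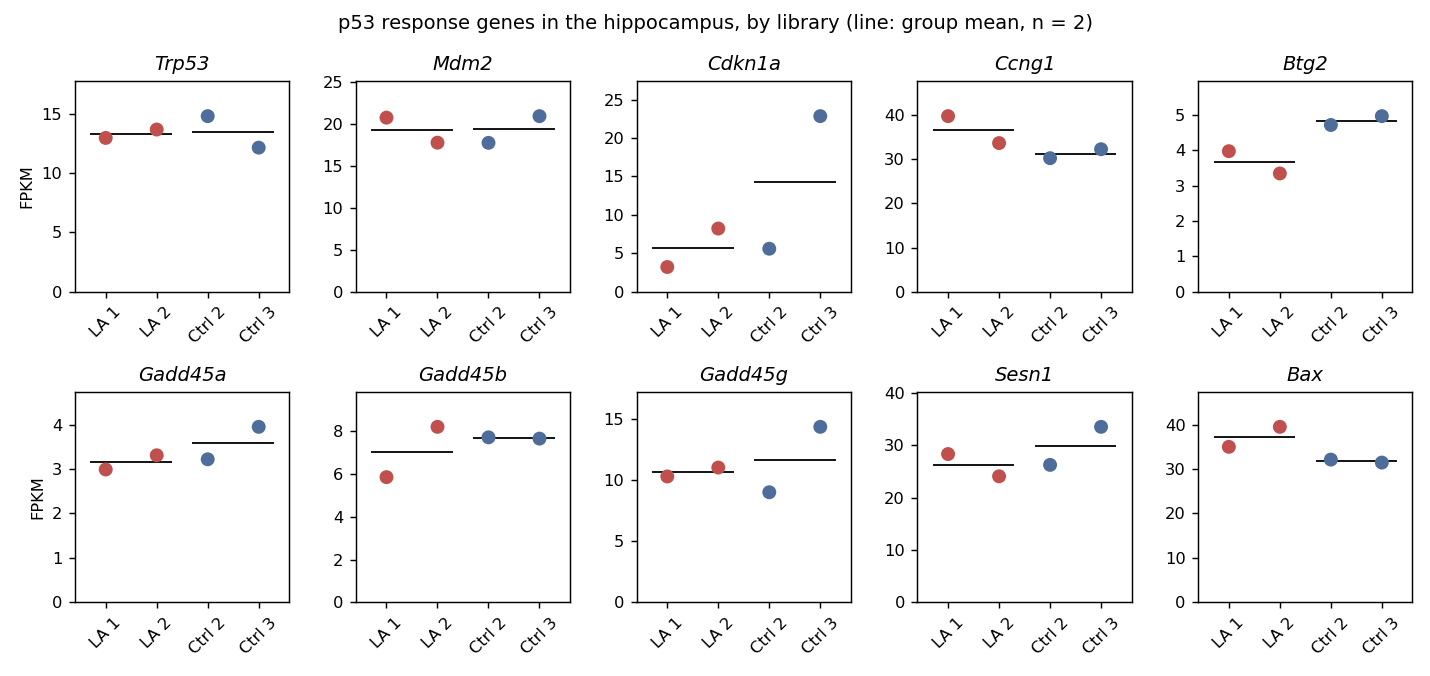
Level of each p53 response gene in FPKM (vertical axes from 0) in each library, with LA 1 and 2 in red, Ctrl 2 and 3 in blue and a line at each group mean (n = 2). Cdkn1a stood at 22.9 FPKM in Ctrl 3 and between 3.21 and 8.22 FPKM in the other libraries, while the groups of Bax, Ccng1 and Btg2 do not overlap.

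By level the genes fell into tiers. Bax, Ccng1 and Sesn1 were highest, with means over the 4 libraries of 34.5, 34.0 and 28.0 FPKM, and their neighbouring ranges overlapped. Mdm2 followed at 19.3 FPKM and Trp53 at 13.4 FPKM, and each of these was below its upper neighbour in 4 of 4 libraries without overlap. Gadd45g at 11.2, Cdkn1a at 9.97 and Gadd45b at 7.35 FPKM came next, and from Trp53 to Gadd45b the ranges of neighbours overlapped. Btg2 at 4.25 FPKM lay below Gadd45b in 4 of 4 libraries without overlap, and Gadd45a was lowest at 3.37 FPKM, with a range that overlapped that of Btg2. The median of all tested genes was 10.8 FPKM, so 6 of the 10 genes lay above it.

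Trp53 (gene ID 22059, chr11:69580348-69591873) had 13.0 FPKM in LA 1 and 13.7 FPKM in LA 2, against 14.8 FPKM in Ctrl 2 and 12.2 FPKM in Ctrl 3. Both LA values lay between the Ctrl values. Its log2 fold change was -0.0099 with a 95% interval of -0.40 to 0.38 (adjusted p = 0.996 from limma). The sign turned to 0.019 with median-ratio scaling and to 0.020 with quantile normalization. The genome also holds the processed pseudogene Trp53-ps, which can share reads with Trp53.

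Mdm2 (gene ID 17246, chr10:117688875-117710758), the main negative regulator of p53, had 20.8 and 17.8 FPKM in LA 1 and 2, against 17.8 and 20.97 FPKM in Ctrl 2 and 3. The groups spanned nearly the same range, with means of 19.3 ± 2.11 FPKM in LA and 19.4 ± 2.26 FPKM in Ctrl (SD, n = 2 each). Its log2 fold change was -0.0052 with an interval of -0.40 to 0.39 (adjusted p = 0.997 from limma), and it was 0.024 with median-ratio scaling. Among the 10 genes Mdm2 had the smallest range over the libraries, 0.23 on the log2 scale. The ratio of Mdm2 to Trp53, a target set against its inducer, was 1.6 and 1.3 in LA 1 and 2, against 1.2 and 1.72 in Ctrl 2 and 3, so the ratio overlapped as well.

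Cdkn1a (gene ID 12575, chr17:29090979-29100722) varied most. It had 3.21 FPKM in LA 1 and 8.22 FPKM in LA 2, against 5.59 FPKM in Ctrl 2 and 22.9 FPKM in Ctrl 3. Ctrl 2 lay between the LA libraries, and Ctrl 3 lay 4.09-fold above Ctrl 2. The means were 5.72 ± 3.54 FPKM in LA and 14.2 ± 12.2 FPKM in Ctrl (SD, n = 2 each), with a log2 fold change of -1.01 and an interval of -2.39 to 0.37 (adjusted p = 0.732 from limma). Without Ctrl 3 the log2 fold change was -0.081, and without Ctrl 2 it was -1.94, where Cdkn1a was called (adjusted p = 0.00691 from limma, with Ctrl 3 as the lone Ctrl library). It was -0.44 without LA 1 and -1.57 without LA 2, not called in either case. The size of the difference thus rested on Ctrl 3. Its range over the 4 libraries, 2.5 on the log2 scale, was reached or exceeded by 0.718% of all tested genes, beside a median range of 0.42.

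Ctrl 3 was also the library in which the choroid plexus markers were far highest. Of all tested genes, 166 (1.23%) were at least 2-fold higher in Ctrl 3 than in every other library. These included 12 of the 12 tested choroid plexus markers and, of the p53 response genes, Cdkn1a. This cut was chosen after the values were seen. Ttr, the transthyretin gene of the choroid plexus, had 47.2 and 75.2 FPKM in LA 1 and 2, against 12.2 and 7360 FPKM in Ctrl 2 and 3. Among the libraries other than Ctrl 3, Ctrl 2 had the lowest choroid plexus sum and 5.59 FPKM of Cdkn1a. LA 1 had 3.21 FPKM of Cdkn1a, and LA 2, with the highest sum of these, had 8.22 FPKM. The part of the choroid plexus in the Cdkn1a values was not tested. In whole tissue, fewer cells that express a gene and less of its RNA per cell cannot be told apart.

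**Figure D2:**
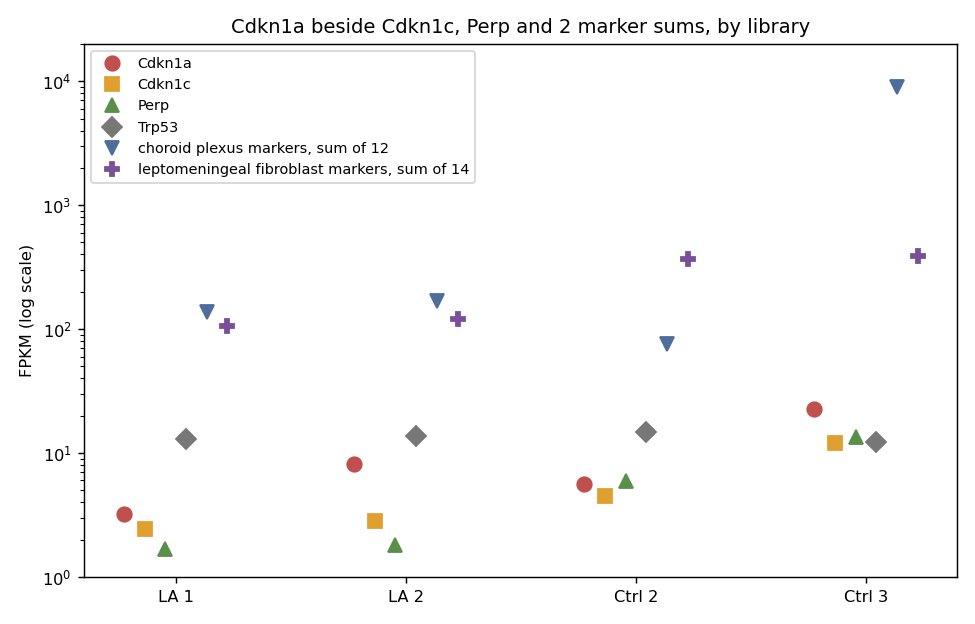
Levels in FPKM on a log axis, by library, of Cdkn1a, Cdkn1c, Perp and Trp53, and the summed FPKM of 12 choroid plexus and 14 leptomeningeal fibroblast markers. Cdkn1a, Cdkn1c, Perp and the choroid plexus sum were highest in Ctrl 3, the leptomeningeal sum was high in both Ctrl libraries, and Trp53 was level at 12.2 to 14.8 FPKM.

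Ccng1 (gene ID 12450, chr11:40748552-40755309) encodes cyclin G1, which recruits protein phosphatase to MDM2. It had 39.8 and 33.7 FPKM in LA 1 and 2, against 30.2 and 32.3 FPKM in Ctrl 2 and 3. LA 1 stood above the rest and LA 2 lay only just above Ctrl 3. The means were 36.7 ± 4.31 FPKM in LA and 31.2 ± 1.44 FPKM in Ctrl (SD, n = 2 each), and the log2 fold change was 0.22 with an interval of -0.14 to 0.59 (adjusted p = 0.776 from limma). Leaving out any 1 library gave values of 0.10 to 0.34.

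Btg2 (gene ID 12227, chr1:134074865-134079155) encodes an antiproliferative protein that speeds the removal of poly(A) tails from messenger RNAs, and it is also known as an immediate early gene of neurons. It had 3.97 and 3.34 FPKM in LA 1 and 2, against 4.71 and 4.96 FPKM in Ctrl 2 and 3. Both LA values lay below both Ctrl values. The log2 fold change was -0.33 with an interval of -0.77 to 0.12, which did not pass (adjusted p = 0.731 from limma), and it was -0.43 to -0.23 with each library left out.

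Btg2 belongs to the BTG and TOB family of antiproliferative proteins. Of the 5 genes of this family examined here, 4 had LA values below the Ctrl values and 1 above, with 0 called by limma. Among all tested genes 21% had LA below Ctrl without overlap. Btg3 had 19.7 and 15.5 FPKM in LA 1 and 2, against 25.2 and 32.8 FPKM in Ctrl 2 and 3, a log2 fold change of -0.68 (adjusted p = 0.456). Tob1, which likewise binds the deadenylase complex, had 16.2 and 12.5 FPKM in LA, against 19.0 and 22.7 FPKM in Ctrl, with a log2 fold change of -0.51 (adjusted p = 0.607). Tob2 had -0.32, while Btg1 had a positive log2 fold change of 0.12. None of the 5 changed its sign with a library left out, which follows from groups that do not overlap. Tob2 and Btg1 were named after their values were seen, and the family was not tested as a set. The summed level of these 5 genes was 66.0 and 56.7 FPKM in LA 1 and 2, against 75.8 and 85.4 FPKM in Ctrl 2 and 3.

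The GADD45 proteins are small stress sensors that activate the kinase MAP3K4 and take part in DNA repair and demethylation. None of the 3 genes separated the groups. Gadd45a (gene ID 13197, chr6:67035096-67037407) had 2.99 and 3.31 FPKM in LA 1 and 2, against 3.22 and 3.95 FPKM in Ctrl 2 and 3, with a log2 fold change of -0.14 (interval -0.61 to 0.33), which was -0.025 without Ctrl 3. Gadd45b (gene ID 17873, chr10:80930091-80932204), known for induction by neuronal activity, had 5.85 and 8.20 FPKM in LA, against 7.71 and 7.65 FPKM in Ctrl. The LA values thus lay on either side of the Ctrl values, with a log2 fold change of -0.13 (interval -0.60 to 0.34). Gadd45g (gene ID 23882, chr13:51846675-51848475) had 10.3 and 11.03 FPKM in LA, against 9.01 and 14.4 FPKM in Ctrl, and here the Ctrl values enclosed those of LA. Its log2 fold change was -0.089 (interval -0.62 to 0.44) with all libraries but 0.22 without Ctrl 3. The adjusted p of the 3 genes was 0.901, 0.917 and 0.955 from limma in the order given.

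Sesn1 (gene ID 140742, chr10:41810574-41908436) encodes sestrin 1, which restrains the growth kinase complex mTORC1. It had 28.3 and 24.1 FPKM in LA 1 and 2, against 26.2 and 33.5 FPKM in Ctrl 2 and 3. LA 1 lay above Ctrl 2, and Ctrl 3 was highest. The log2 fold change was -0.18 with an interval of -0.59 to 0.24 (adjusted p = 0.849 from limma), and it was -0.0073 without Ctrl 3. The related Sesn2 and Sesn3 had log2 fold changes of -0.14 and -0.48, and Sesn3 differed mainly within the LA group, at 6.93 FPKM in LA 1 and 3.3 FPKM in LA 2, against 6.77 and 7.49 FPKM in Ctrl 2 and 3.

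Bax (gene ID 12028, chr7:45461695-45466903) encodes the protein that opens the outer mitochondrial membrane in cell death. It had 35.0 and 39.5 FPKM in LA 1 and 2, against 32.1 and 31.5 FPKM in Ctrl 2 and 3. Both LA values lay above both Ctrl values, which were close together. The means were 37.3 ± 3.18 FPKM in LA and 31.8 ± 0.474 FPKM in Ctrl (SD, n = 2 each), and the log2 fold change of 0.22, with an interval of -0.13 to 0.57, did not pass (adjusted p = 0.767 from limma). With each library left out it was 0.13 to 0.30.

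Bax is held in check by BCL2 and BCL-XL, the product of Bcl2l1. The ratio of Bax to Bcl2l1 was 0.953 and 0.895 in LA 1 and 2, against 0.774 and 0.669 in Ctrl 2 and 3, and the groups did not overlap. The ratio of Bax to Bcl2 overlapped, with 14.6 and 21.6 in LA 1 and 2, against 16.0 and 18.5 in Ctrl 2 and 3. Both ratios were chosen with the Bax values known, and neither was tested.

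Marker sums of other cell types also differed between the groups. The 14 myelin markers of oligodendrocytes summed to 3768 and 4575 FPKM in LA 1 and 2, against 2416 and 2114 FPKM in Ctrl 2 and 3. Positive log2 fold changes and an unadjusted p under 0.05 from limma were found for 14 of 14. Of these, 0 were called (smallest adjusted p 0.125). Over all tested genes, 7.8% had an unadjusted p under 0.05 and 0.141% were called. The 13 microglia markers, positive in 13 of 13, summed to 532 and 518 FPKM in LA, against 395 and 401 FPKM in Ctrl, with 0 called. In the other direction, the 14 leptomeningeal fibroblast markers summed to 105 and 121 FPKM in LA, against 366 and 390 FPKM in Ctrl, and 9 of the 14 were called lower. The 14 endothelial markers summed to 78.9 and 86.0 FPKM in LA, against 103 and 152 FPKM in Ctrl, with 0 of 12 tested called, and the 11 pericyte and smooth muscle markers to 37.1 and 37.7 FPKM in LA, against 80.2 and 75.9 FPKM in Ctrl, with 1 of 7 tested called lower. Other lists were mixed, such as the 12 astrocyte markers, with 7 positive and 5 negative. Not one of these markers was listed at 0 in any library. Their part in the values of Bax, Ccng1, Btg2 and the BTG and TOB family was not tested.

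**Figure D3:**
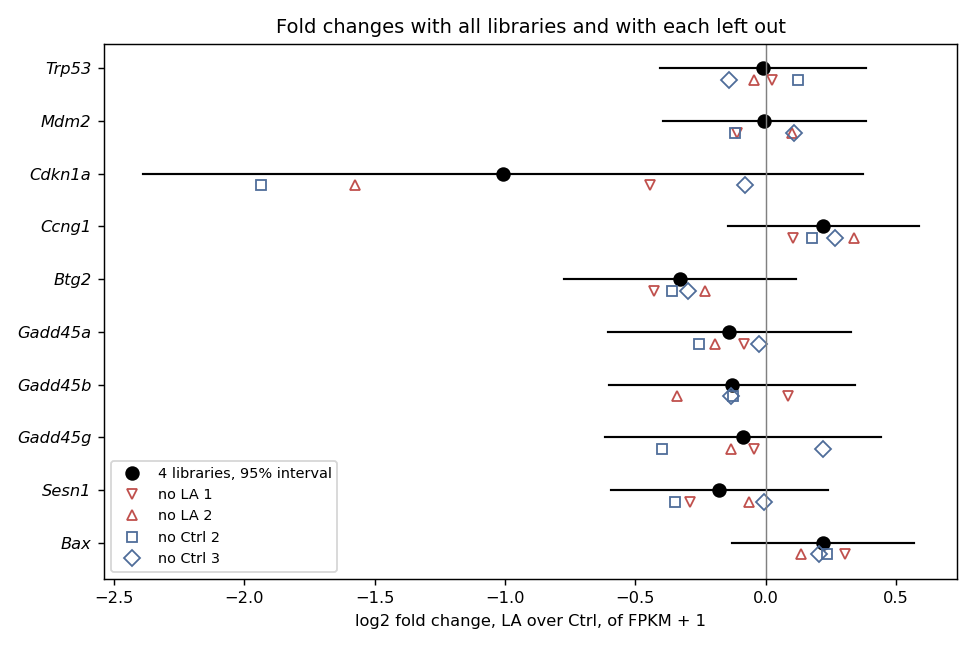
Log2 fold change of FPKM + 1, LA over Ctrl, of the p53 response genes with its 95% interval from limma (black), and without 1 library at a time (open symbols, n = 3 libraries). Each interval crosses 0, and for Cdkn1a the estimate moved between -1.94 without Ctrl 2 and -0.081 without Ctrl 3.

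Across the libraries, 6 of the 10 genes were highest in Ctrl 3, against 23.6% of all tested genes. These were Cdkn1a, Mdm2, Gadd45a, Gadd45g, Sesn1 and Btg2. Apart from Cdkn1a the excess over Ctrl 2 was at most 1.59-fold, for Gadd45g. Trp53 itself was lowest in Ctrl 3, at 0.821 of its Ctrl 2 level. The ratio of Cdkn1a to Trp53 was 0.247 and 0.60 in LA 1 and 2, against 0.377 and 1.88 in Ctrl 2 and 3.

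The wider pathway was described through 9 lists of regulators, further targets and partners of these genes, which held 133 genes besides the 10. Of these, 104 had a mean of at least 1 FPKM and were tested, and 0 were called by limma. An unadjusted p under 0.05 was found for 6 of them, or 5.77%, near the 7.8% of all genes. The sign of the log2 fold change was positive in 46 genes and negative in 58. The sign of several list medians turned when 1 library was left out, as given with each list. The smallest adjusted p was 0.157, for Perp.

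Among 15 tested regulators of p53, 7 had higher and 8 lower fitted values with LA, none past the threshold, and the median log2 fold change was -0.0074, with values of -0.16 without LA 1 to 0.065 without LA 2. Chek2, the checkpoint kinase that phosphorylates p53, had 3.47 and 2.47 FPKM in LA 1 and 2, against 1.95 and 1.89 FPKM in Ctrl 2 and 3, with a log2 fold change of 0.43 (adjusted p = 0.694). Ppm1d, the phosphatase that reverses such marks, had -0.34 (adjusted p = 0.724). Mdm4, the MDM2 relative, had 23.8 and 13.8 FPKM in LA 1 and 2, against 16.98 and 14.5 FPKM in Ctrl 2 and 3, and differed more within LA than between the groups. Cdkn2a, the locus of the senescence marker p16 and of the MDM2 inhibitor ARF, was below the filter, at 0.16 and 0.36 FPKM in LA and 0.15 and 0.07 FPKM in Ctrl.

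Growth arrest targets had a median of -0.23 over 9 tested genes, 3 positive and 6 negative. They held Btg1, Btg3, Tob1 and Tob2, whose values were given above with their family. Also among them was Plk2, an activity-induced kinase of neurons. Plk2 had 46.8 and 64.5 FPKM in LA 1 and 2, against 63.0 and 65.9 FPKM in Ctrl 2 and 3. The list median was 0.0019 without LA 1, -0.26 without Ctrl 2 and -0.090 with no filter.

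Of 11 tested cell death targets 5 were positive and 6 negative, with a median of -0.064 that was 0.093 without LA 1 and -0.11 without LA 2. Perp, a membrane protein of desmosomes and a p53 target, had 1.67 and 1.81 FPKM in LA 1 and 2, against 5.94 and 13.6 FPKM in Ctrl 2 and 3. The groups did not overlap, and the log2 fold change was -1.88 with an interval of -2.66 to -1.10, yet it did not pass over all genes (adjusted p = 0.157 from limma). Without Ctrl 3 it was -1.34, and without Ctrl 2, with Ctrl 3 as the lone Ctrl library, it was -2.41. Like Perp, the leptomeningeal markers were low in both LA libraries. Their sum was close between the Ctrl libraries, at 366 and 390 FPKM in Ctrl 2 and 3, whereas Perp was higher in Ctrl 3. The choroid plexus sum was also highest in Ctrl 3. The part of either cell type in the Perp values was not tested. Phlda3, an inhibitor of AKT, had a log2 fold change of 0.41, and Bbc3, which encodes the BAX activator PUMA, had -0.064.

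Targets in metabolism and DNA repair were split, 6 positive and 7 negative of 13, with a median of -0.042 that was -0.096 without LA 1 and 0.059 without LA 2. Sco2, an assembly factor of cytochrome c oxidase, had 6.76 and 8.84 FPKM in LA 1 and 2, against 11.6 and 11.4 FPKM in Ctrl 2 and 3, with a log2 fold change of -0.52 (adjusted p = 0.605). Fdxr, the mitochondrial ferredoxin reductase, went the other way, with 10.0 and 7.71 FPKM in LA, against 6.54 and 5.84 FPKM in Ctrl, a log2 fold change of 0.45 (adjusted p = 0.645). Neither passed the test.

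Besides Cdkn1a, 4 of 6 listed CDK inhibitors were tested, and 1 was positive and 3 negative. Their median was -0.13, and it was -0.051 without LA 1 and -0.21 without LA 2. Cdkn1c, which encodes the p21 relative p57, had 2.44 and 2.83 FPKM in LA 1 and 2, against 4.46 and 12.2 FPKM in Ctrl 2 and 3, with a log2 fold change of -1.22 (adjusted p = 0.528 from limma). It was -0.59 without Ctrl 3, and -1.86 without Ctrl 2, with Ctrl 3 as the lone Ctrl library. The choroid plexus sum was also highest in Ctrl 3, and its part in the Cdkn1c values was not tested. Cdkn1b, which encodes p27, was level, with 16.8 and 16.5 FPKM in LA, against 16.9 and 18.9 FPKM in Ctrl, and Cdkn2d, which encodes p19, had a log2 fold change of -0.16.

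Downstream of p21, cyclins, CDKs and the RB family had a median of 0.051 over 19 tested genes, 11 positive and 8 negative. The median was -0.034 without Ctrl 3, -0.011 without LA 1 and 0.10 without LA 2. Ccnd2, a D-type cyclin, had 13.8 and 18.3 FPKM in LA 1 and 2, against 11.8 and 9.54 FPKM in Ctrl 2 and 3, with a log2 fold change of 0.54 that did not pass (adjusted p = 0.609 from limma). Lin37, a subunit of the DREAM repressor complex through which p21 acts, had 0.35 (adjusted p = 0.732). Of 17 proliferation genes that this complex represses, only 9 were tested, with a median of 0.013 that was -0.039 without LA 2 and 0.022 without LA 1. Mki67, a marker of dividing cells, lay at 0.39 and 0.19 FPKM in LA and 0.27 and 0.36 FPKM in Ctrl, and Cdk1 at 0.09 and 0.02 FPKM in LA and 0.06 and 0.09 FPKM in Ctrl. Pcna, the replication clamp that p21 also binds, had a log2 fold change of -0.17, and Tyms of 0.24.

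The BCL2 family and caspases had a median of -0.064 over 17 tested genes, 7 positive and 10 negative, and it was -0.011 without LA 1. Diablo, an antagonist of caspase inhibitors, had 13.3 and 16.2 FPKM in LA 1 and 2, against 11.4 and 11.4 FPKM in Ctrl 2 and 3, with a log2 fold change of 0.34 (adjusted p = 0.692). Bok, a BAX relative, had 0.46 (adjusted p = 0.724), and Bak1, the closest counterpart of Bax, had -0.18. Cycs, which encodes cytochrome c, stood at 32.4 FPKM in LA 2 alone. It had 70.6 FPKM in LA 1 and 62.2 and 69.5 FPKM in Ctrl 2 and 3. Without LA 1, with LA 2 as the lone LA library, its log2 fold change was -1.0. The GADD45 partners had a median of -0.11 over 10 tested genes, 2 positive and 8 negative, which was -0.20 without LA 1 and -0.0023 without LA 2. Map3k4 had -0.095, Tdg, the glycosylase of DNA demethylation, -0.27, and Mapk9, a JNK kinase, -0.26.

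**Figure D4:**
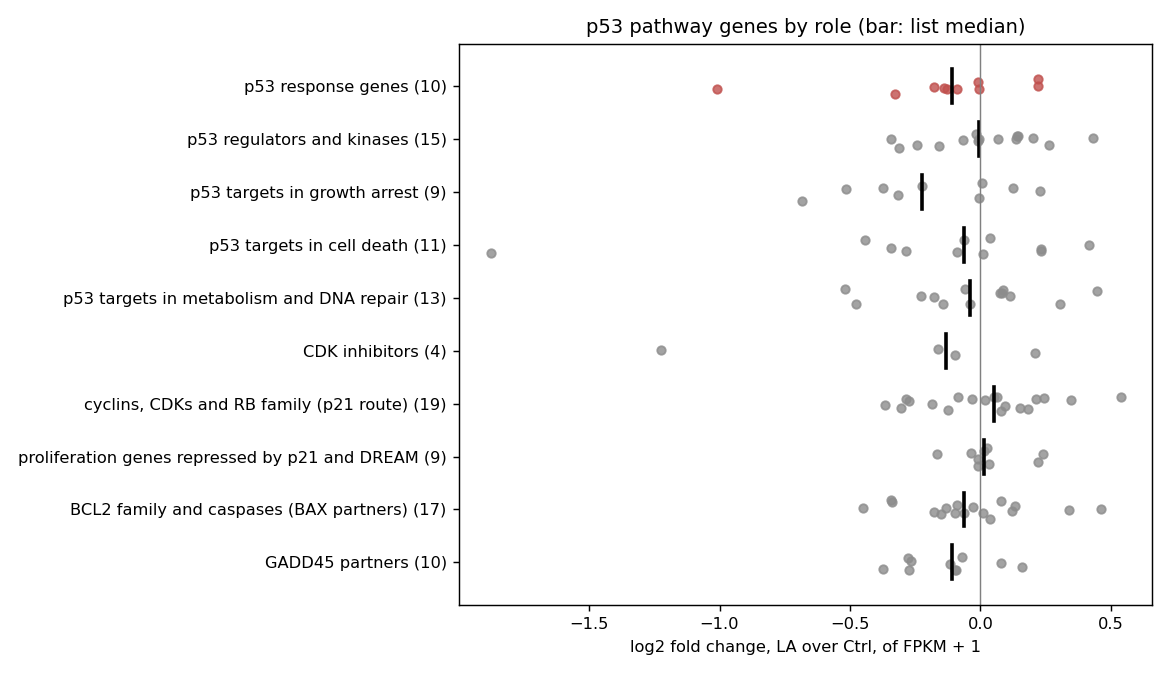
Log2 fold change of FPKM + 1, LA over Ctrl, of each tested gene (points) of the p53 response genes (red) and of the 9 pathway lists (grey, number tested in parentheses), with the list median as a bar. With all 4 libraries the medians ran from -0.23 for growth arrest targets to 0.051 for cyclins, CDKs and the RB family, and the points farthest from 0 were Perp at -1.88, Cdkn1c at -1.22 and Cdkn1a at -1.01.

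Overlapping genes limit some values. In GENCODE M21, Gadd45a and Cdkn1a each overlap a transcript on the opposite strand, E230016M11Rik and AC167363.2, and the counting is not stated to use strand. Bax and Sesn1 each overlap another annotated gene on their own strand, which counting by strand would not separate.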

How the data were processed

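The authors deposited FPKM values, 1 column for each of the 4 libraries. TopHat2, Cufflinks and the build GRCm38 appear in the processing notes of the submitters. Tool versions, the gene annotation and read totals are not stated in what was read here, so the sampling error of single values is unknown. The 10 genes and all lists were chosen with earlier results of these data known. The 13518 of 19230 genes whose mean over the 4 libraries reached 1 FPKM were compared on log2(FPKM + 1) with limma 3.58.1 in R 4.3.3 (lmFit, eBayes with a trend), two-sided, with Benjamini-Hochberg adjustment over all of them and a threshold of 0.05. The prior had 5.37 degrees of freedom, beside 2 residual ones. Such fold changes understate the change of low genes. The procedure was also run on data simulated from its own model, which cannot show how well it works on these libraries. Gene positions and promoter sequences are from RefSeq on GRCm38.p6, where 10 of the 10 genes matched. From each list the 2 genes of smallest unadjusted p and the gene written first were named, and for Cdkn1a the 3 genes nearest in Euclidean distance of log2(FPKM + 1). Bcl2, Bcl2l1, Sesn3, Tob2, Btg1, Cdkn2a, Cycs and Lcn2 were named after their values were seen. Alternatives were no filter or a minimum mean of 5 FPKM, pseudocounts of 0.1 and 0.5, quantile normalization, median-ratio scaling, robust estimation in limma, limma with no trend, and each library left out.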

Additional observations from a re-analysis of the deposited data

How the results depend on the processing

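No p53 response gene was called under 11 of 12 alternatives, and the exception was Cdkn1a without Ctrl 2. With each library left out in turn, 0 to 1 of the 10 genes and 0 to 2 of the pathway genes were called by limma, against 2 to 227 of all genes tested (19 with every library). The lone library of a group was then assumed to vary like the others. Over all genes, 0 were called without a filter (1333 at an unadjusted p under 0.05) and 40 with robust estimation. Of 118 values of the 10 genes under alternatives, 107 had the same sign and call, 1 newly passed and 10 changed sign. Sign changes with median-ratio scaling gave Trp53 0.019 and Mdm2 0.024, and with quantile normalization Trp53 0.020 and Mdm2 0.020. Over the libraries left out, the range crossed 0 for Trp53 (-0.14 to 0.12), Mdm2 (-0.12 to 0.11), Gadd45b (-0.34 to 0.084) and Gadd45g (-0.40 to 0.22). The cause was not tested. Median-ratio scaling moved the median of all genes to 0.014. Gadd45a and Btg2 were not tested at a mean of at least 5 FPKM. No paired analysis was possible because the groups share only replicate number 2 in the labels.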

Other observations

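Outside the p53 pathway, immediate early genes, which neuronal activity induces within minutes, had a median log2 fold change of -0.075 over 25 tested genes, 8 positive and 17 negative, with 0 called by limma and 6 at an unadjusted p under 0.05. The median was 0.0049 without Ctrl 2 and -0.20 without LA 2. Ier3, an early response gene linked to cell survival, had 2.48 and 2.33 FPKM in LA 1 and 2, against 5.12 and 5.12 FPKM in Ctrl 2 and 3, with a log2 fold change of -0.85 (adjusted p = 0.316). Klf4, a transcription factor that can induce Cdkn1a, had -0.80 (adjusted p = 0.577), and Fos had 2.39 and 3.91 FPKM in LA, against 3.15 and 7.16 FPKM in Ctrl.

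Glucocorticoid response genes had a median of -0.037 over 16 tested genes, 6 positive and 10 negative, with 0 called and 2 at an unadjusted p under 0.05. The median turned to 0.13 without Ctrl 3 and was -0.24 without Ctrl 2. Per1, a clock gene that glucocorticoids induce, had 16.5 and 18.2 FPKM in LA 1 and 2, against 26.0 and 37.7 FPKM in Ctrl 2 and 3, with a log2 fold change of -0.82 (adjusted p = 0.389 from limma). Sult1a1, a sulfotransferase, had -0.82 as well (adjusted p = 0.492). Without Ctrl 2, with Ctrl 3 as the lone Ctrl library, Sult1a1 had -1.16 and Lcn2 had -1.48. Of these 16 genes 10 were highest in Ctrl 3, against 23.6% of all tested genes. Cdkn1a and the choroid plexus markers were highest in Ctrl 3 too, and a link of either to these genes was not tested. Sgk1 had 60.5 and 72.9 FPKM in LA, against 58.4 and 83.0 FPKM in Ctrl.

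By Euclidean distance of log2(FPKM + 1) over the 4 libraries, Bst2, the interferon-inducible gene of tetherin, was nearest to Cdkn1a in pattern (distance 0.187). It had 2.43 and 6.34 FPKM in LA 1 and 2, against 3.90 and 15.5 FPKM in Ctrl 2 and 3. Vasn followed at 0.239, listed at 0 in LA 1 and at 4.68 FPKM in Ctrl 3, and then an unnamed gene of the table at 0.278. With 4 libraries such likeness is a description and says nothing of shared control. Cdkn1c ranked 29th by this distance and Perp 205th.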
